A study of Mus musculus with 24 samples.

Results

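The comparison was of H3K4me3 in tagged neurons with H3K4me3 in the whole tissue they came from, within a single mouse line. In Camk2a H2B-FLAG mice, chromatin of the cerebral cortex was immunoprecipitated either once, with an antibody to H3K4me3 (single ChIP-Seq), or in tandem, with the M2 antibody to FLAG followed by the antibody to H3K4me3 (tChIP-Seq). The members were chosen by label alone and are the 3 tChIP-Seq and the 3 single ChIP-Seq libraries of this line, 6 of the 24 samples of the series and 6 of the 12 with H3K4me3 counts. The animals were C57BL/6 males, double heterozygous for a Rosa26 allele holding CAG-floxed-pA-H2B-FLAG and for CaMKCreERT2, in which Cre is driven by the Camk2a promoter and needs tamoxifen. They received tamoxifen at 1 mg per day for 5 days from the age of 8 weeks, and the cortex was taken a month later, for both kinds of library alike. Each lysate pooled the cortices of 2 animals. The same step was fitted in the other line, Rosa H2B-FLAG (genotype Rosa CAG-H2B-FLAG). In this line the stop cassette was deleted in the germ line and nearly all cells carry tagged H2B. Its 3 tChIP-Seq and 3 single ChIP-Seq libraries are used below only beside the Camk2a values and for differences between the lines. The sources used here give no age and no tamoxifen treatment for Rosa mice. Line, Cre driver and tamoxifen thus cannot be told apart in any difference between the lines.

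The counts covered 17993 regions on mm9, with a median width of 1774 bp. Single ChIP-Seq libraries totalled 4063200 to 4233144 counts, with medians of 185 to 193 per region. Those of tChIP-Seq totalled 2709729 to 3049130 counts, with medians of 123 to 139 per region. Pearson's r between replicates, across regions, was 0.994 to 0.995 in single ChIP-Seq and 0.991 in every tChIP-Seq pair, and replicate counts differed by slightly more than counting error (chi-square per degree of freedom from 1.04 to 1.09). The Rosa libraries were less even in depth. Rosa single ChIP-Seq totalled 6316125 to 8644574 counts (medians 279 to 384 per region), and Rosa tChIP-Seq 1457261 to 1828371 (medians 69 to 88). Values are given in CPM, the count per region relative to the TMM-scaled library total. A region was called when the adjusted p of edgeR's quasi-likelihood test was under 0.01, and a change is tChIP-Seq over single ChIP-Seq on the log2 scale. In Camk2a mice 4559 regions were called higher (25.3% of those tested) and 4058 lower (22.6%), and in 11087 regions (61.6%) the CPM values of the 3 libraries of each kind did not overlap. In Rosa mice the shares were 24.7% higher and 22.5% lower. The paper also found sites that differed between tChIP-Seq and single ChIP-Seq in Rosa mice, though fewer. It proposes that bias of the procedure, such as longer DNA after the FLAG step or effects of the tag, may cause them. For that reason its quantitative comparisons were mainly between the tChIP-Seq libraries of the lines. How much of each change in Camk2a mice came from the procedure was not tested. The change in Camk2a mice was above that in Rosa mice in 2466 regions (13.7%) and below it in 2375 (13.2%), by the interaction term over all 12 libraries. These shares are the background for the counts below. TMM assumes that most regions do not change: scaled instead on the promoters of ribosomal protein, oxidative phosphorylation and proteasome genes, all changes moved up by 0.19, and 82.1% of the calls were higher in place of 52.9%.

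H3K4me3, trimethylation of lysine 4 of histone H3, is laid down by SET1 and MLL complexes around the start sites of active genes and of many genes held ready for activation, mostly at CpG-rich promoters. Excitatory neurons of the cortex are glutamatergic cells that express Camk2a, a calcium- and calmodulin-dependent kinase of synapses, and they lie among inhibitory interneurons, astrocytes, oligodendrocytes, microglia and the cells of blood vessels. In tandem ChIP, the tagged histone selects chromatin of the cells in which Cre was active, and the second antibody selects the modified nucleosomes within it.

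The following stretches are the 250 bases upstream of the annotated start, 5′ to 3′ on the gene's strand, from mm9, with each CpG in capitals. They were chosen after the values had been seen, to show single promoters that gained or lost signal, and their CpG numbers do not stand for their kind: the transcription factor genes Fev (chr1:74931994-74932243, minus strand, 23 CpGs) and Foxi3 (chr6:70906275-70906524, plus strand, 22 CpGs), which gained in both lines; Golga7b, a gene named in the study (chr19:42329979-42330228, plus strand, 15 CpGs), which gained in Camk2a mice; and the oligodendrocyte gene Aspa (chr11:73138137-73138386, minus strand, 2 CpGs, mostly outside its counted region), which lost signal in Camk2a mice. Aspa was also called lower in Rosa mice, by a smaller change (-0.76). The median over all 12981 such stretches with a counted region at the start was 16 CpGs. It was 14 in those higher in both lines and 17 in those called lower. In the 403 that fell by 1 or more on the log2 scale it was 6.
Fev: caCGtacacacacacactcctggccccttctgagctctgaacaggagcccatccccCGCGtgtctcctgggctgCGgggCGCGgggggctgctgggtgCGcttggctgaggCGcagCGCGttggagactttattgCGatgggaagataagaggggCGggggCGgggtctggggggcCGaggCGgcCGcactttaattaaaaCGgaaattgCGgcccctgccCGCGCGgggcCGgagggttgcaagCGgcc
Foxi3: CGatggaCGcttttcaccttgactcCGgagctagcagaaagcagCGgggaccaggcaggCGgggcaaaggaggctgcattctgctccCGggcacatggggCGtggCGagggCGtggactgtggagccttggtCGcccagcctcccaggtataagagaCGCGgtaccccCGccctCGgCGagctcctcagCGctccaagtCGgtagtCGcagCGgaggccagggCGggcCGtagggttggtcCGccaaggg
Golga7b: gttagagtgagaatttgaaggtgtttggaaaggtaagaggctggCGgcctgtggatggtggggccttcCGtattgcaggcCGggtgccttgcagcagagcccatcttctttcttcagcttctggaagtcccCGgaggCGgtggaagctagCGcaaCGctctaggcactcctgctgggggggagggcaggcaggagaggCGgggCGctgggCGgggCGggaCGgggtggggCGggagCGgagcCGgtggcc
Aspa: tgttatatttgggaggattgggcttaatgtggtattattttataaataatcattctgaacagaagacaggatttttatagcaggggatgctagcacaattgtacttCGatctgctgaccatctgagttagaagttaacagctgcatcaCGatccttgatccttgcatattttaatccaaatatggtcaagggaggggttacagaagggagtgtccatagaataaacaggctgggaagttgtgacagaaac

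The strongest loss of any cell type list was at endothelial promoters. All 13 regions at genes of the endothelial list were called lower, against 22.6% of all regions, with a median change of -2.16 (all regions -0.01), and in none did the 2 kinds of libraries overlap. Cdh5, VE-cadherin of endothelial junctions, gave 24.2, 22.8 and 24.3 CPM in the single ChIP-Seq libraries and 4.24, 5.02 and 3.29 CPM in the tChIP-Seq libraries. The change was -2.49 ± 0.21 (SE, n = 3 against 3, adjusted p 4.4e-23). Erg, an ETS factor of endothelial cells (chr16:95675921-95680945), fell from 42.6, 42.0 and 44.1 CPM to 4.24, 8.60 and 7.69 CPM, the largest fall of the list (-2.66 ± 0.16). Robo4, a receptor of vessel walls, fell from 14.7, 13.0 and 16.6 CPM to 1.96, 3.59 and 2.56 CPM. The remaining signal at these promoters was thus a few CPM in every tChIP-Seq library, with the highest tChIP-Seq value of Erg, 8.60 CPM, far under the lowest single ChIP-Seq value, 42.0 CPM. Tek, the receptor of angiopoietins, was uneven in tChIP-Seq, at 6.84, 0.72 and 6.22 CPM against 20.8, 21.8 and 20.3 CPM. The smallest falls of the list were at Kdr (-0.46 ± 0.11), a VEGF receptor, and at Sox18 (-0.67 ± 0.12), an endothelial transcription factor. In Rosa mice the median change of the same regions was 0.27, and the change in Camk2a mice was below that in Rosa mice in all 13. The summed level of the list was 407 to 418 CPM in single ChIP-Seq and 140 to 157 CPM in tChIP-Seq. As in any bulk preparation, fewer cells of a type and less of the mark per cell cannot be told apart here. The paper's estimate of the share of labelled cells was about equal to the lowest share it set for the method. How much of the tChIP-Seq signal came from untagged cells was not tested.

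Oligodendrocyte and astrocyte promoters mostly fell as well. Of the 12 regions of the oligodendrocyte lineage, 9 were called lower and 1 higher, with a median of -1.47. Nkx2-2, a transcription factor of this lineage (chr2:147011003-147012662), gave 27.4, 20.4 and 24.8 CPM in single ChIP-Seq and 4.56, 3.59 and 2.56 CPM in tChIP-Seq. Its change was -2.73 ± 0.22 (adjusted p 7.9e-25). Mag, a protein of the myelin membrane, fell from 30.3, 31.8 and 28.5 CPM to 5.22, 5.74 and 5.49 CPM. Olig2, which specifies the lineage, fell from 71.4, 59.5 and 68.1 CPM to 14.0, 10.8 and 14.6 CPM. In all 3 the libraries of each kind stood well apart. An exception was Pdgfra, the receptor of oligodendrocyte precursors (0.22 ± 0.17, not called). Others were Ugt8a, a galactolipid enzyme of myelin (-0.22 ± 0.087, not called), and the upstream start of Mbp, which rose. Mbp is described with the other genes of several starts below. In Rosa mice 4 of the 12 regions were called lower, against 22.5% of all regions, and 1 higher (median -0.22). The change in Camk2a mice was below that in Rosa mice in 9 of the 12 and above it in 1.

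Of the 13 astrocyte regions, 9 were called lower and 1 higher, with a median of -0.87. Aqp4, the water channel of astrocyte end-feet (chr18:15560643-15562295), gave 12.7, 13.3 and 12.4 CPM in single ChIP-Seq and 3.91, 2.51 and 2.93 CPM in tChIP-Seq (-2.01 ± 0.26, adjusted p 1.1e-11). Gja1, connexin 43, fell from 71.9, 67.3 and 61.4 CPM to 18.6, 21.2 and 18.3 CPM (-1.79 ± 0.11). Slc1a3, the glutamate transporter GLAST, fell from 82.4, 82.0 and 68.8 CPM to 30.6, 29.0 and 27.8 CPM (-1.41 ± 0.10). In each of these the tChIP-Seq libraries lay below all single ChIP-Seq libraries. The wide region of Slc1a2, the glutamate transporter GLT-1, was called lower by a much smaller step, at 174, 185 and 174 CPM in single ChIP-Seq and 158, 162 and 156 CPM in tChIP-Seq (-0.16 ± 0.052), and Sox9, a transcription factor of progenitors and astrocytes, was not called (0.06 ± 0.064). In Rosa mice the astrocyte regions had a median change of 0.56, and in 11 of 13 the change in Camk2a mice was below that of the same region in Rosa mice.

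Microglia could hardly be followed, since only 3 of the 17 listed genes had a region and those of Cx3cr1, Csf1r, Tmem119 and P2ry12 had none. Irf8, a myeloid factor, was called higher (0.43 ± 0.14) and Cd40, a receptor of antigen-presenting cells, lower (-1.45 ± 0.41), but both calls rested on single libraries. Irf8 was not called without single ChIP-Seq replicate 2 (0.34) or tChIP-Seq replicate 1 (0.41) or 3 (0.38), nor Cd40 without single ChIP-Seq replicate 2 (-1.17) or tChIP-Seq replicate 1 (-1.35) or 2 (-1.14). Of the 6 mural and meningeal regions 3 were called lower and 1 higher. Pdgfrb, the PDGF receptor of pericytes, fell from 47.4, 34.8 and 42.6 CPM to 14.0, 10.0 and 13.9 CPM (-1.71 ± 0.14). Kcnj8, a pericyte potassium channel with a low and narrow region, went the other way, from 6.60, 8.77 and 9.16 CPM to 17.9, 21.5 and 20.9 CPM (1.29 ± 0.18), and did so in Rosa mice too (1.34).

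Promoters of inhibitory neurons were split. Of 12 regions 5 were called lower and 2 higher, with a median of -0.25. Scaled on housekeeping promoters, 4 were lower and 4 higher, with a median of -0.06. Gad1, which makes GABA from glutamate (chr2:70399966-70402801), gave 27.4, 35.3 and 30.0 CPM in single ChIP-Seq and 11.7, 12.5 and 13.9 CPM in tChIP-Seq, without overlap. Its change was -1.28 ± 0.15 (adjusted p 5.9e-14). The homeobox genes Dlx2, Dlx5 and Dlx6, which specify interneurons, fell by 1.15, 0.72 and 1.19 on the log2 scale. Gad2, the other GABA-synthesising enzyme, overlapped between the kinds, at 16.6, 18.5 and 14.9 CPM in single ChIP-Seq and 18.3, 13.6 and 11.7 CPM in tChIP-Seq (-0.19 ± 0.17). Pvalb, the calcium buffer of a class of interneurons, had a low region of 700 bp and rose from 4.16, 4.27 and 3.47 CPM to 10.8, 11.1 and 8.05 CPM (1.33 ± 0.26), and also rose in Rosa mice (1.85). In 7 of the 12 regions the change in Camk2a mice was below that in Rosa mice, and in none was it above.

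Promoters of excitatory cortical neurons gained, by less than the glial and vascular ones lost. Of 14 regions 10 were called higher, against 25.3% of all regions, and 2 lower, with a median of 0.37. Emx1, a homeobox gene of the dorsal forebrain (chr6:85136655-85141923), gave 137, 142 and 143 CPM in single ChIP-Seq and 226, 210.4 and 244 CPM in tChIP-Seq. Its change was 0.69 ± 0.051 (adjusted p 3.8e-28), the largest of the list. Neurod6, a bHLH factor of pyramidal neurons, rose from 103, 87.9 and 95.1 CPM to 121, 127 and 125 CPM (0.38 ± 0.064). Fezf2 and Bcl11b, which specify deep-layer projection neurons, changed by 0.40 and 0.34. The upper-layer factor Cux2 and Rorb of layer 4 neurons were not called (0.10 ± 0.065 and 0.09 ± 0.066). Mef2c, an activity-regulated factor, was lower in every tChIP-Seq library, at 75.6, 64.5 and 88.6 CPM against 113, 105 and 111 CPM (-0.53 ± 0.071). In Rosa mice the same 14 regions had a median change of -0.78, and the interaction was called above in 12 and below in none. The summed level of the list was 1776 to 1817 CPM in single ChIP-Seq of Camk2a mice, 2139 to 2242 CPM in tChIP-Seq, and 1036 to 1109 CPM in tChIP-Seq of Rosa mice.

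**Figure D1:**
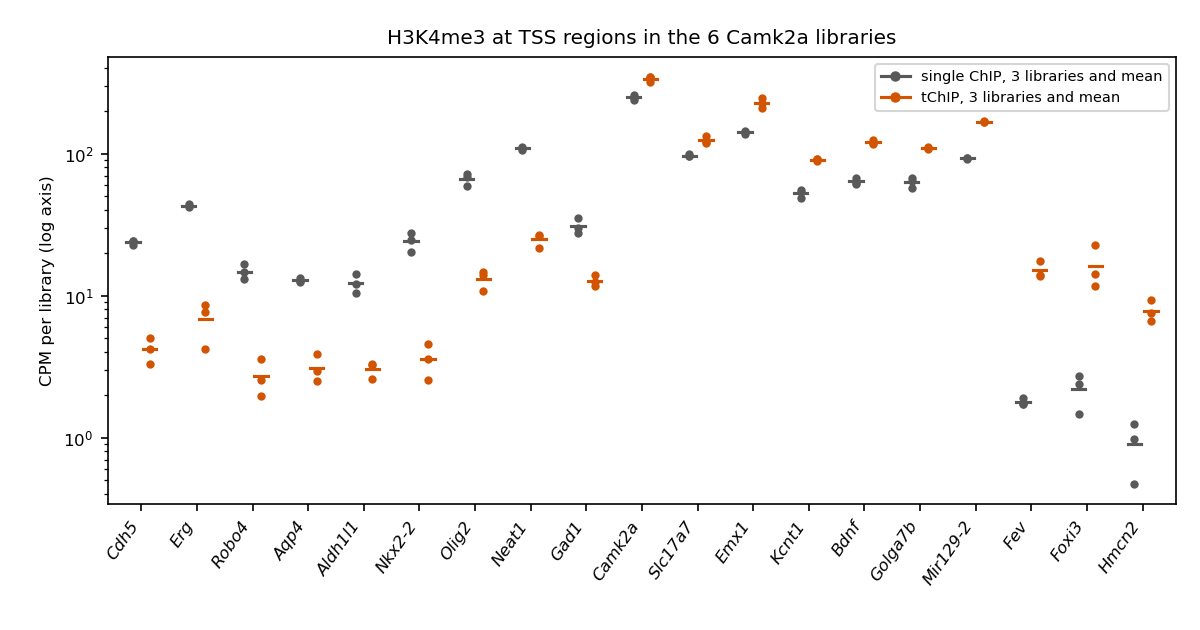
CPM of H3K4me3 (log axis) at 19 TSS regions in each of the 3 single ChIP-Seq and 3 tChIP-Seq libraries of Camk2a mice, with the group mean as a bar. Vascular and glial genes and Gad1 lay lower in every tChIP-Seq library, neuronal genes higher by smaller steps, and Fev, Foxi3 and Hmcn2 rose from near 1 or 2 CPM.

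Ion channel promoters were mostly called higher. Of 38 potassium channel regions 32 were called higher and 1 lower, and of 23 regions of sodium and calcium channels 20 were called higher and none lower, with medians of 0.45 and 0.38. Kcnt1, a sodium-activated channel (chr2:25732799-25735117), gave 53.8, 48.4 and 55.2 CPM in single ChIP-Seq and 90.9, 91.8 and 88.2 CPM in tChIP-Seq. Its change was 0.79 ± 0.079 (adjusted p 1.1e-17), and it fell in Rosa mice (-0.64). The 1 potassium channel called lower was Kcnj10, the inward rectifier of glia, at 39.9, 35.6 and 38.9 CPM in single ChIP-Seq and 16.6, 15.4 and 17.6 CPM in tChIP-Seq (-1.20 ± 0.13). Among calcium channels, Cacna1h, a T-type channel, rose from 87.6, 84.2 and 85.7 CPM to 142, 139.8 and 151 CPM (0.75 ± 0.062), and Cacng2, the AMPA receptor subunit stargazin, from 149, 155 and 157 CPM to 226, 215 and 218 CPM (0.51 ± 0.050). Scn1a and Scn2a1, the pores of axonal sodium channels, changed by 0.46 and 0.45. In 57 of these 61 channel regions the change in Camk2a mice was above that in Rosa mice.

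Of 12 GABA-A receptor regions 11 were called higher and none lower (median 0.41). Gabra5, a subunit of extrasynaptic receptors, rose from 40.6, 46.9 and 50.8 CPM to 70.7, 76.0 and 71.7 CPM (0.66 ± 0.087, adjusted p 1.6e-11). Of 23 glutamate receptor regions 13 were called higher and 1 lower (median 0.29). The metabotropic receptors Grm4, Grm2 and Grm8 led them, with Grm4 at 71.9, 74.0 and 78.5 CPM in single ChIP-Seq and 139, 133 and 146 CPM in tChIP-Seq (0.90 ± 0.065). The promoters of the abundant AMPA receptor subunit Gria2 and of Gria3 were not called (-0.13 ± 0.049 and -0.02 ± 0.080), while Gria1 rose (0.34 ± 0.061). Grin2a, an NMDA receptor subunit of mature neurons, rose from 199.8, 172 and 194 CPM to 252, 272 and 248 CPM. The 1 receptor called lower was Grin2c, at 23.2, 26.8 and 25.3 CPM in single ChIP-Seq and 16.0, 13.6 and 19.0 CPM in tChIP-Seq (-0.63 ± 0.15); it rose in Rosa mice (0.86).

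At postsynaptic density genes 15 of 22 regions were called higher and 2 lower (median 0.24), and at genes of presynaptic release 10 of 25 higher and 3 lower (median 0.19). Scaled on housekeeping promoters, the counts were 20 and 0 at postsynaptic and 21 and 1 at presynaptic genes (medians 0.44 and 0.38). Shank2, a scaffold of the density, rose from 132, 127 and 125 CPM to 176, 203 and 192 CPM (0.57 ± 0.054), without overlap. Doc2a, a calcium sensor of vesicle release, rose from 35.0, 33.4 and 34.9 CPM to 71.7, 69.2 and 70.6 CPM (1.03 ± 0.093, adjusted p 4.0e-21), the largest change of either list. Core parts of the fusion machinery were not called higher. Snap25, a plasma membrane SNARE, gave 176, 176 and 175 CPM in single ChIP-Seq and 181, 189 and 188 CPM in tChIP-Seq (0.08 ± 0.050, not called). Syt1, the calcium sensor of fast release, gave 190.3, 179.9 and 179 CPM and 187, 188 and 179 CPM (0.01 ± 0.050, not called). Snap25 and Syt1 were above their changes in Rosa mice (-1.43 and -1.20), with interaction adjusted p of 1.0e-41 and 7.8e-32.

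Of 20 regions of immediate early genes 10 were called higher and 4 lower, the latter near the background share. Bdnf, the neurotrophin (chr2:109532213-109535827), rose from 62.1, 61.2 and 67.6 CPM to 125, 118 and 119 CPM (0.92 ± 0.070, adjusted p 2.9e-27). Egr4, a zinc finger factor, rose from 79.0, 76.8 and 77.5 CPM to 142, 149 and 145 CPM, and Npas4, an activity-dependent factor of neurons, from 119.8, 124 and 131 CPM to 205, 182 and 192 CPM. The transcription factor gene Jun and the phosphatase gene Dusp1 were lower without overlap (-0.36 ± 0.048 and -0.54 ± 0.057), and Egr1, Junb and Arc were not called. Of 18 regions of calmodulin kinases, calmodulin and calcineurin 9 were called higher and 6 lower. Camk2a itself gave 260.5, 248 and 236 CPM in single ChIP-Seq and 321, 344 and 346 CPM in tChIP-Seq, without overlap (0.44 ± 0.042). The kinases Camk1g, Camk4 and Camk2b also rose (0.73, 0.46 and 0.40). The calmodulin gene Calm2 and the calcineurin subunits Ppp3ca, Ppp3cb and Ppp3r1 were lower. Calm2 went from 259, 252 and 253 CPM to 199, 191 and 213 CPM (-0.34 ± 0.046). With the single ChIP-Seq counts thinned, 6 of the 18 regions were higher and 6 lower. In Rosa mice 15 of the 18 were called lower, against 22.5% of all regions, and none higher (median -0.49). Ppp3r1 changed by -0.42 in Camk2a and -0.32 in Rosa mice, without an interaction call. The change in Camk2a mice was above that in Rosa mice in 12 of the 18 and below it in none.

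**Figure D2:**
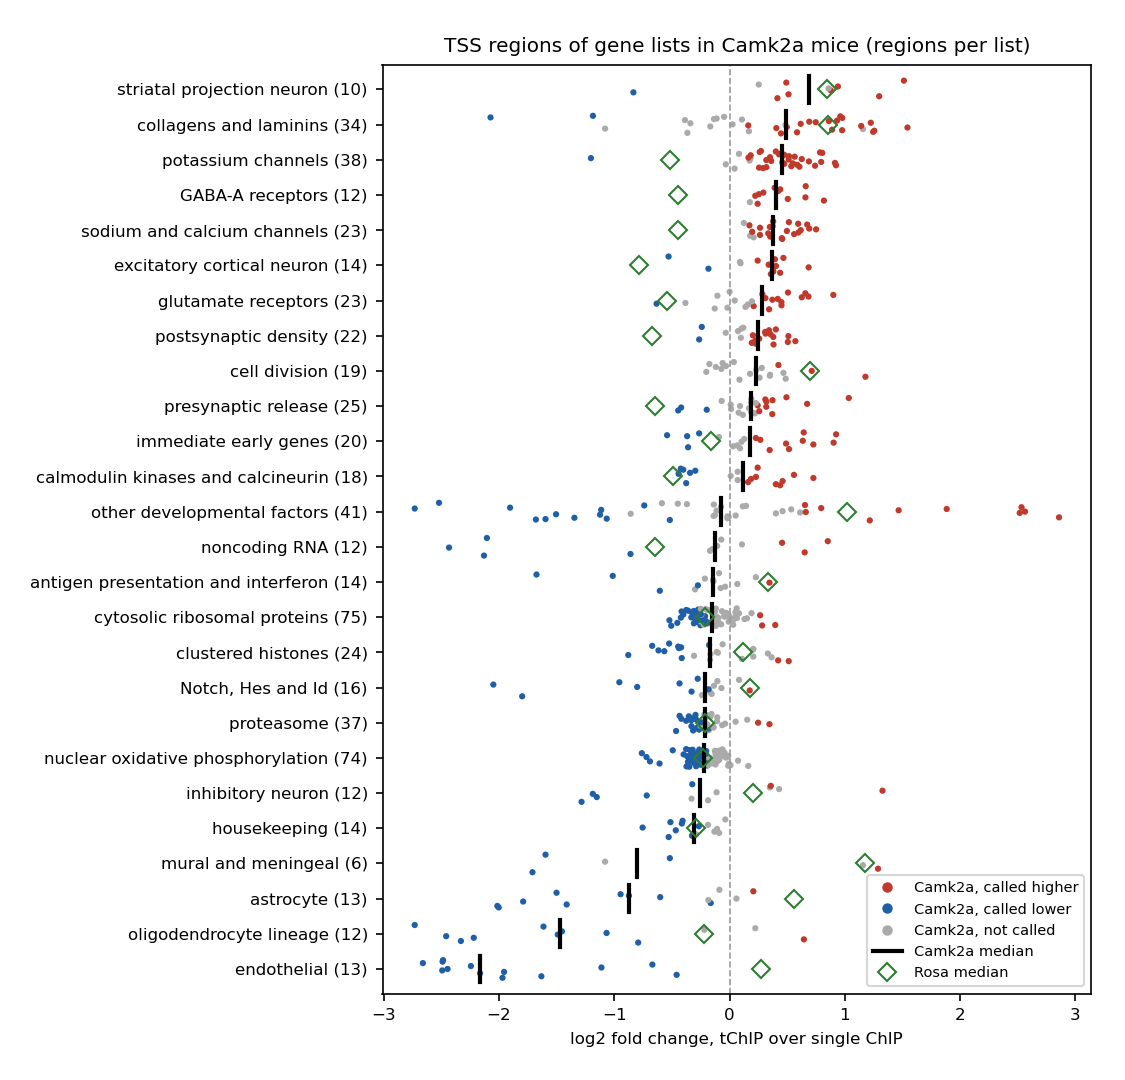
Change of H3K4me3 (log2, tChIP-Seq over single ChIP-Seq) at the TSS regions of each gene list in Camk2a mice: points are regions, black bars the list medians, open diamonds the medians of the same regions in Rosa mice. Endothelial regions had a median of -2.16 in Camk2a and 0.27 in Rosa mice, potassium channels 0.45 and -0.52, and nuclear oxidative phosphorylation -0.22 and -0.23.

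Promoters used in most cells were slightly lower in both lines under TMM scaling. At nuclear genes of oxidative phosphorylation 41 of 74 regions were called lower and none higher (median -0.22, and -0.23 in Rosa mice). At cytosolic ribosomal protein genes 28 of 75 were lower and 3 higher (median -0.15, and -0.21 in Rosa mice), and at proteasome genes 17 of 37 were lower and 2 higher (median -0.21 in both lines). The interaction was called at 3 of these 186 regions, against 13.7% and 13.2% of all regions in the 2 directions. Atp5l, a subunit of ATP synthase, fell from 99.5, 99.3 and 93.1 CPM to 61.6, 67.0 and 63.3 CPM (-0.61 ± 0.075). Gapdh and Actb, common reference genes, gave 188, 179.9 and 192 CPM and 143, 153 and 137 CPM in single ChIP-Seq. In tChIP-Seq they gave 152, 147 and 147 CPM and 108, 93.9 and 98.4 CPM, lower in each library. Scaling on these same 3 lists sets their sum level by construction. With it the ribosomal list was 9 higher and 4 lower with its median turned to 0.04, the oxidative phosphorylation list 2 and 6 and the proteasome list 2 and 3, while 12 of 13 endothelial regions remained lower and 12 of 14 excitatory regions were higher. Of the other lists, that scaling also turned the sign of the medians of clustered histone genes, antigen presentation, noncoding RNA, ependymal and choroid plexus genes and other developmental factors. It gave 15 higher and 2 lower of 20 immediate early regions and 36 higher of 38 potassium channel regions.

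**Figure D3:**
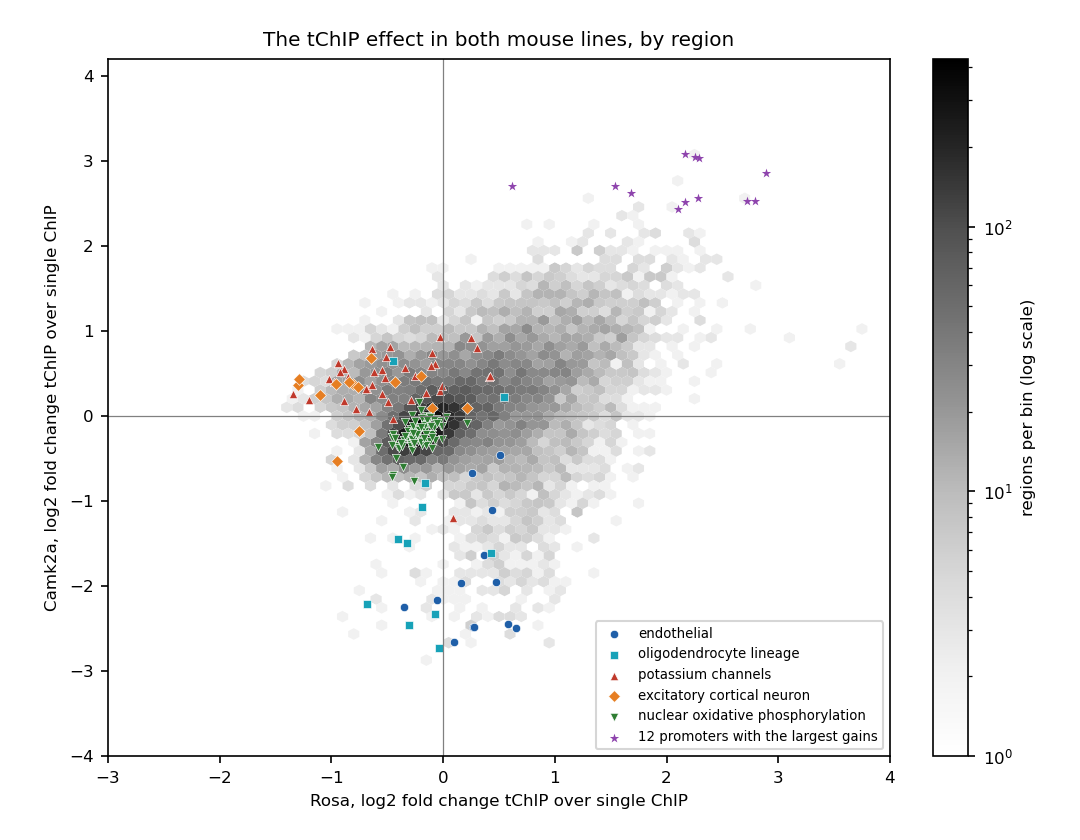
Change of H3K4me3 (log2, tChIP-Seq over single ChIP-Seq) in Camk2a mice against that in Rosa mice for all regions (grey, darker with more regions per bin, log scale), with chosen lists coloured. Endothelial regions lay below the horizontal line on either side of 0 on the Rosa axis, potassium channels mostly in the upper left, oxidative phosphorylation in the lower left close to the origin, and the promoters with the largest gains in the upper right.

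The 12 promoters with the largest rises among those without overlap that reached a mean of 5 CPM were those of Hmcn2, Fev, Cpz, Foxi3, Gpr101, Crabp1, Frem3, Lhx3, Pax2, Ihh, Irx4 and Fut1, with changes from 3.08 to 2.44. A low level in single ChIP-Seq is favoured by this choice. Fev, a factor of serotonergic neurons whose cell bodies lie in the brainstem (chr1:74931543-74932565), gave 1.71, 1.90 and 1.73 CPM in single ChIP-Seq and 13.7, 17.6 and 13.9 CPM in tChIP-Seq. Its change was 3.05 ± 0.28 (adjusted p 7.6e-21), and 2.25 in Rosa mice. Foxi3, a forkhead factor of embryonic ectoderm (chr6:70906163-70907095), rose from 1.47, 2.37 and 2.72 CPM to 11.7, 22.6 and 14.3 CPM (2.86 ± 0.27), against 2.89 in Rosa mice. Ihh, a hedgehog ligand of cartilage, rose from 0.98, 2.61 and 2.23 CPM to 10.8, 9.68 and 13.9 CPM (2.53 ± 0.29), against 2.79 in Rosa mice. The single ChIP-Seq values of these promoters were a few counts per library, so their folds are uncertain: Hmcn2, a gene of the extracellular matrix, had 11 counts in the 3 single ChIP-Seq libraries and 67 in the 3 of tChIP-Seq, a ratio relative to library totals of 8.75 (exact 95% interval 4.59 to 18.4, counting error only). The interaction was called at 1 of the 12, Gpr101, an orphan receptor on the X chromosome (chrX:54756523-54757132), at 1.71, 0.95 and 1.49 CPM in single ChIP-Seq and 7.17, 10.0 and 10.6 CPM in tChIP-Seq (2.71 ± 0.33, and 0.62 in Rosa mice).

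Many listed genes of other brain regions had no region, among them 9 of 12 of the monoaminergic and cholinergic list. Its 3 regions, at Fev, Slc6a4 and Slc6a3, were all called higher, with a median of 1.41, and 2.25 in Rosa mice. Slc6a4, the serotonin transporter, rose from 11.0, 9.48 and 10.6 CPM to 27.7, 28.3 and 27.1 CPM (1.41 ± 0.16). Of 10 regions of striatal projection neurons 7 were called higher and 1 lower (median 0.69, and 0.85 in Rosa mice). Drd2, a dopamine receptor, rose from 4.89, 7.11 and 5.94 CPM to 13.7, 15.1 and 15.7 CPM (1.30 ± 0.21). Of 3 cerebellar and hindbrain regions 1 was called higher and 1 lower. Cbln1 rose from 46.7, 52.2 and 42.1 CPM to 84.4, 86.0 and 72.8 CPM (0.79 ± 0.085), and also rose in Rosa mice (0.41). Zic1 and Zic4, zinc finger genes of the cerebellum that share a region, were lower, at 20.5, 15.4 and 14.6 CPM against 52.3, 48.4 and 57.9 CPM (-1.63 ± 0.12). That region rose in Rosa mice (0.59).

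Developmental transcription factors, of which 41 regions had counts, were called higher at 10 and lower at 12, both shares near the background. Members with large rises had low levels, which a large fold over single ChIP-Seq favours, with means of 1.70 to 3.24 CPM in single ChIP-Seq at Foxi3, Lhx3, Pax2 and Irx4. Nkx2-2, given above, had the largest fall. Tbx3, a T-box factor (chr5:120120827-120125962), fell from 61.1, 64.5 and 75.3 CPM to 13.4, 10.8 and 10.6 CPM (-2.52 ± 0.13, adjusted p 1.7e-46). Gata2, a zinc finger factor of blood and vessels, fell from 64.8, 61.4 and 68.3 CPM to 19.9, 27.2 and 21.6 CPM (-1.50 ± 0.11). Foxf2, a forkhead factor of pericytes, fell from 104, 107 and 111 CPM to 44.0, 40.5 and 42.1 CPM (-1.35 ± 0.081). In Rosa mice the list had a median of 1.02, and in 27 of 41 regions the change in Camk2a mice was below that in Rosa mice. Collagen and laminin genes were called higher at 19 of 34 regions and lower at 2 (median 0.49), and in Rosa mice higher at 26 (median 0.85). Col15a1 rose from 13.2, 13.7 and 15.1 CPM to 37.2, 26.2 and 37.0 CPM (1.26 ± 0.14). Lamb2, a laminin chain of vessel basement membranes, fell from 18.6, 15.6 and 16.1 CPM to 2.93, 3.59 and 5.49 CPM (-2.07 ± 0.23), while it rose in Rosa mice (1.06).

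Notch pathway genes and the Id genes, inhibitors of bHLH factors, were called lower at 8 of 16 regions and higher at 1. Notch1 fell from 84.1, 90.1 and 77.3 CPM to 22.8, 20.1 and 29.6 CPM (-1.80 ± 0.10), and Id3 from 81.7, 83.0 and 78.2 CPM to 19.9, 20.4 and 18.3 CPM (-2.05 ± 0.11). Jag1, a ligand of Notch, fell by 0.96 on the log2 scale. The receptor genes Notch2, Notch3 and Notch4 and the ligand genes Dll1 and Dll4 were not called. In antigen presentation and interferon response, 4 of 14 regions were lower, near the background share, and 1 higher, below it, with B2m, the light chain of class I molecules, at 49.9, 48.8 and 61.9 CPM in single ChIP-Seq and 35.2, 35.1 and 35.1 CPM in tChIP-Seq (-0.60 ± 0.10). Clustered histone genes were lower at 10 of 24 regions and higher at 2, and cell division genes were higher at 3 of 19 and lower at none, the first below the background share of 25.3%. Scaled on housekeeping promoters, cell division genes were higher at 9 of 19, above the share of all regions under that scaling, 7002 of 17993. Of the small lists, ependymal and choroid plexus genes had 1 of 3 regions higher and 1 lower, as did cerebellar and hindbrain genes, the Hox clusters had 2 of 3 higher and none lower, and common reference genes had 8 of 14 lower and none higher.

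The 12 promoters with the largest losses were those of Agmo, Aspa, S100a16, Tsc22d4, Slco1c1, Gpt, Cmtm5, Usp54, Adipor2, Zfp36l2, Plekhb1 and Scarf1, from -3.42 to -2.74. Several of these genes are known from glia or vessels. Aspa, the aspartoacylase of oligodendrocytes (chr11:73135606-73138138, sequence above), gave 23.2, 20.6 and 26.2 CPM in single ChIP-Seq and 2.28, 1.79 and 3.66 CPM in tChIP-Seq. Its change was -3.17 ± 0.24 (adjusted p 4.1e-27), and it was also called lower in Rosa mice (-0.76). Slco1c1, a thyroid hormone transporter of the blood-brain barrier, fell from 30.6, 29.9 and 27.5 CPM to 5.22, 1.43 and 4.76 CPM. Zfp36l2, which promotes decay of AU-rich mRNAs (chr17:84584040-84586688), was the most abundant of the 12 and fell from 98.1, 97.9 and 109 CPM to 12.7, 14.3 and 16.1 CPM (-2.82 ± 0.11, adjusted p 9.8e-64). The libraries did not overlap in any of the 12, as the choice required. The interaction, which shares the Camk2a libraries with that choice, was called in all 12, with the change below that in Rosa mice. Agmo, which cleaves ether lipids, had 66 counts over the 3 single ChIP-Seq libraries against 4 over those of tChIP-Seq.

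The 1356 regions that rose by 1 or more had a median level of 3.72 CPM in single ChIP-Seq, a median width of 700 bp and a median change of 1.10 in Rosa mice, and 31.5% of them were at starts of protein-coding genes. In 12.5% of them the change in Camk2a mice was above that in Rosa mice. The 633 regions that fell by 1 or more had a median level of 12.9 CPM, a median width of 1417 bp and a median change of 0.54 in Rosa mice, and in 92.9% the change in Camk2a mice was below that in Rosa mice. Both shares, and the levels in single ChIP-Seq, include the values by which the regions were picked. The comparisons of the lines have no library in common. Of the regions called higher in Camk2a mice 40.2% were also called higher in Rosa mice and 18.7% lower; of those called lower, 42.7% were also lower in Rosa mice and 16.4% higher. The 853 regions that rose in Camk2a and fell in Rosa mice were wide and strong, with a median width of 3469 bp and 87.8 CPM, against 1068 bp and 9.47 CPM for the 1831 that rose in both. Across regions, which are not independent replicates and share depth and width, Pearson's r between the changes of the lines was 0.349 over 17993 regions, 0.327 in the 2770 under 5 CPM in Rosa single ChIP-Seq and -0.068 in the 3421 above 100 CPM.

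Some genes with several starts held regions of both directions. Of 13297 protein-coding genes with a region at a start, 808 had 2 or more such regions. In 82 of these (10.1%) a region was called higher and another lower. Of all regions at protein-coding starts 21.5% were called higher and 27.5% lower. Those are shares of single regions, and how often they alone would give opposite calls in a gene was not tested. The 82 genes are therefore described singly, with no claim that opposite calls were frequent. In 79 of the 82 neither region overlapped between the kinds and both reached 5 CPM. In 3 of the 79 the regions lay 14, 108 and 166 bp apart, and Akap2 and AF064781 shared a falling region. The upstream start rose in 44 of the 79 and fell in 35. At Mbp, whose upstream start gives the golli transcripts and whose downstream start gives myelin basic protein, the upstream region (chr18:82643953-82646548) rose from 76.8, 71.8 and 69.3 CPM to 108, 121 and 112 CPM (0.65 ± 0.069). The downstream region (chr18:82723949-82730263), 77401 bp away, fell from 76.5, 79.2 and 76.3 CPM to 16.0, 21.2 and 15.7 CPM (-2.14 ± 0.11, adjusted p 1.9e-45). The 2 regions thus had nearly equal levels in single ChIP-Seq, and means of 114 and 17.6 CPM in tChIP-Seq. In Rosa mice the upstream region changed by -0.45 and the downstream one by -0.95. At Pde4b, a cAMP phosphodiesterase, the upstream region rose from 60.9, 55.9 and 58.9 CPM to 104, 108 and 90.0 CPM (0.78 ± 0.076). Its other region, 480532 bp downstream, fell from 46.5, 40.8 and 46.1 CPM to 12.1, 11.1 and 13.2 CPM (-1.87 ± 0.14). At Dock9, an exchange factor of Cdc42, the upstream region rose from 48.7, 47.4 and 45.8 CPM to 82.1, 86.4 and 67.7 CPM and the downstream one fell from 44.8, 47.2 and 44.3 CPM to 10.8, 7.89 and 9.52 CPM. Sez6l2, a neuronal membrane protein, had the reverse order, with the upstream region falling from 21.8, 19.4 and 21.3 CPM to 4.89, 5.02 and 4.76 CPM and the downstream one rising from 129, 138 and 139.6 CPM to 222, 232 and 215 CPM. In 32 of the 79 genes the rising region was above and the falling region below its change in Rosa mice. The interaction shares the Camk2a libraries with the choice of these genes, which favours those directions. Of all regions at protein-coding starts 16.4% were above and 13.2% below their change in Rosa mice. A gene with a single value per locus in a list above, such as Mbp, stands for its region with the most counts.

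**Figure D4:**
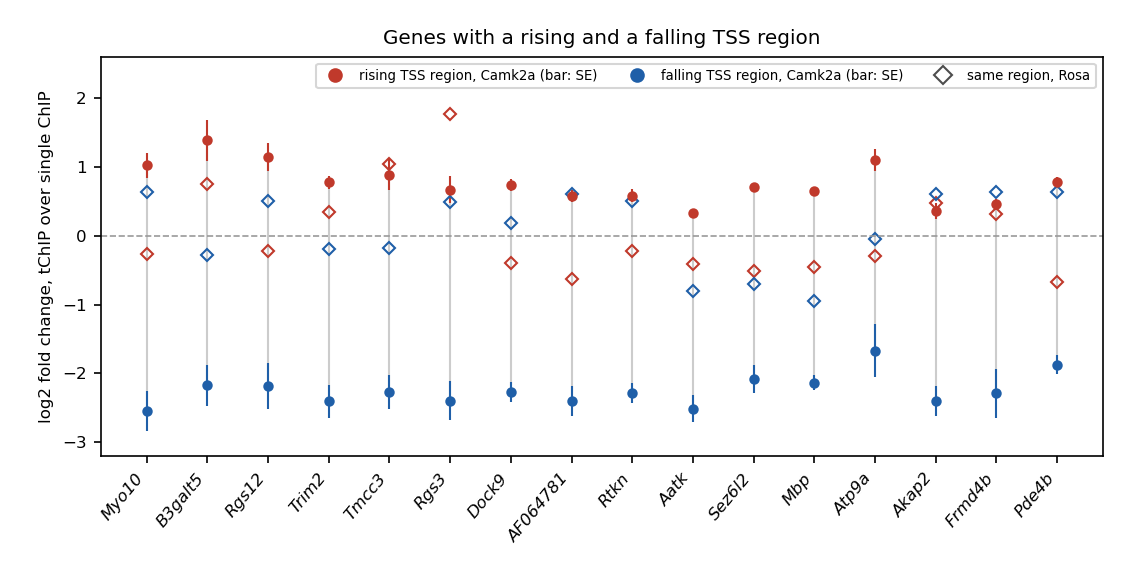
Change of H3K4me3 (log2, tChIP-Seq over single ChIP-Seq) at the rising and falling TSS regions of the 16 genes with the widest gap between them in Camk2a mice, with SE bars, and the same regions in Rosa mice as open diamonds. The rising regions lay between 0.33 and 1.39 and the falling ones between -2.55 and -1.67.

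Of 12 regions of noncoding RNA genes 3 were called higher and 4 lower, and Mir124a-3 was among the 5 not called (0.11 ± 0.052). Mir129-2 (chr2:94080468-94087579) gave 92.7, 92.2 and 92.9 CPM in single ChIP-Seq and 169, 167 and 166 CPM in tChIP-Seq (0.85 ± 0.059). Mir137 (chr3:118132659-118139355) rose from 154, 148 and 153 CPM to 188, 231 and 207 CPM (0.46 ± 0.052). The region of Mir219-2, a miRNA of oligodendrocyte differentiation (chr2:29699767-29702589), fell from 32.8, 34.4 and 30.7 CPM to 9.78, 7.17 and 5.49 CPM (-2.10 ± 0.17). The mature miRNAs of Mir137 and Mir129-2, from RefSeq on GRCm38.p6 and shown with the seed (bases 2 to 8) in capitals, share no seed; their RNA was not measured here.
miR-137-5p: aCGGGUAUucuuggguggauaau
miR-137-3p: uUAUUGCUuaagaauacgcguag
miR-129-5p: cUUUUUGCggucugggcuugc
miR-129-2-3p: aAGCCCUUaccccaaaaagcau

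Among long noncoding RNAs, Neat1, the scaffold of paraspeckles (chr19:5841138-5845718), fell from 107, 110.0 and 111 CPM to 26.1, 26.9 and 21.6 CPM (-2.13 ± 0.093, adjusted p 1.1e-55), and was not called in Rosa mice (0.14). Malat1, the neighbouring nuclear RNA with the highest level of the list, fell from 562, 579.6 and 549 CPM to 304, 318 and 311 CPM and fell in Rosa mice too (-0.86 and -0.68). Sox2ot, a transcript that overlaps the neural stem cell and glial factor gene Sox2, fell from 74.6, 74.7 and 62.1 CPM to 13.4, 12.9 and 12.8 CPM (-2.43 ± 0.12). Miat rose from 78.7, 78.2 and 82.5 CPM to 122, 134 and 121 CPM (0.65 ± 0.066). Meg3 and Snhg11, abundant RNAs of neurons, were not called in Camk2a mice (-0.17 ± 0.092 and -0.15 ± 0.071) and fell in Rosa mice (-1.51 and -1.36). Of Golga7b, Fam43b and Fam135b, genes named in the study, Golga7b rose from 57.5, 64.5 and 67.6 CPM to 108, 109 and 111 CPM (0.79 ± 0.072), and the others by 0.67 and 0.40.

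By class, regions away from annotated starts gained more often. Of 2074 regions inside genes 39.0% were called higher and 10.7% lower (median 0.43), and of 2490 intergenic regions 33.7% and 7.59% (median 0.36). Of 12986 regions at starts of protein-coding genes 21.5% were higher and 27.5% lower (median -0.07), and of 418 at starts of noncoding genes only 27.5% and 17.7%. Starts shared by divergent genes, 1176 regions, were higher in 10.8% and lower in 34.6%. Regions inside genes held 2.57% ± 0.02 of all counts of single ChIP-Seq libraries and 3.16% ± 0.05 of those of tChIP-Seq libraries (mean ± SD, n = 3). Intergenic regions held 3.88% ± 0.03 and 4.46% ± 0.02, and protein-coding starts 92.0% ± 0.05 and 90.8% ± 0.06. These 3 differences had no overlap of libraries and an exact two-sided permutation p of 0.1, the smallest that 3 against 3 allows (0.133 adjusted over 4 classes), so the design cannot call them. The share at noncoding starts was 1.47% ± 0.01 and 1.48% ± 0.01 (exact permutation p = 0.3). The median change was also positive in Rosa mice in regions inside genes (0.64) and between genes (0.50).

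Among called regions without overlap that reached a mean of 5 CPM, the largest rise inside a gene was in Nos2 (chr11:78766184-78766578, 395 bp), with 3 counts over the single ChIP-Seq libraries against 43 over those of tChIP-Seq, a ratio relative to library totals of 20.6 (exact 95% interval 6.59 to 104). The intergenic one lay 11576 bp from the start of Camk1g (chr1:195208067-195208421), with 2 and 44 counts, a ratio of 31.6 (8.25 to 269). Both intervals cover counting error only and make no allowance for the choice of the largest rise. That choice favours few counts in single ChIP-Seq. The region of the largest fall inside a gene was in Uaca (chr9:60713915-60714733), with 92 and 4 counts. Among starts of noncoding transcripts, D230004N17Rik fell from 22.0, 17.5 and 19.6 CPM to 2.28, 2.15 and 2.56 CPM (-3.06 ± 0.26).

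Level, width and base composition moved with the direction. Ordered by level in Rosa single ChIP-Seq, libraries the Camk2a change does not use, the lowest decile of regions (up to 3.22 CPM) was called higher in 42.5% and lower in 3.50%, and the highest decile (from 130.0 CPM) in 14.8% and 47.2%. The narrowest quintile (up to 898 bp) was higher in 34.8% and lower in 6.50%, the middle one in 16.1% and 26.1%, and the widest (from 2774 bp) in 29.4% and 34.0%. The rise in the share called higher at the widest regions was not seen in Rosa mice, where it was 9.87% and the share lower 57.3%. Regions of the highest GC quintile (from 58.6%) were higher in 45.4% and lower in 11.3%, and those of the lowest (up to 49.1%) in 16.4% and 28.6%. By CpGs observed over expected, the lowest quintile was higher in 36.3% and lower in 17.6% and the highest in 16.0% and 36.9%. Level, width, GC and the change in Rosa mice are related to each other across regions, and their parts in the result were not tested separately. How peaks were merged into the list of regions is not given in the sources used here. A region low in single ChIP-Seq may thus be listed only as a tChIP-Seq peak, which would favour a rise there. The same limit holds for narrow regions and for those away from annotated starts, and it was not tested.

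**Figure D5:**
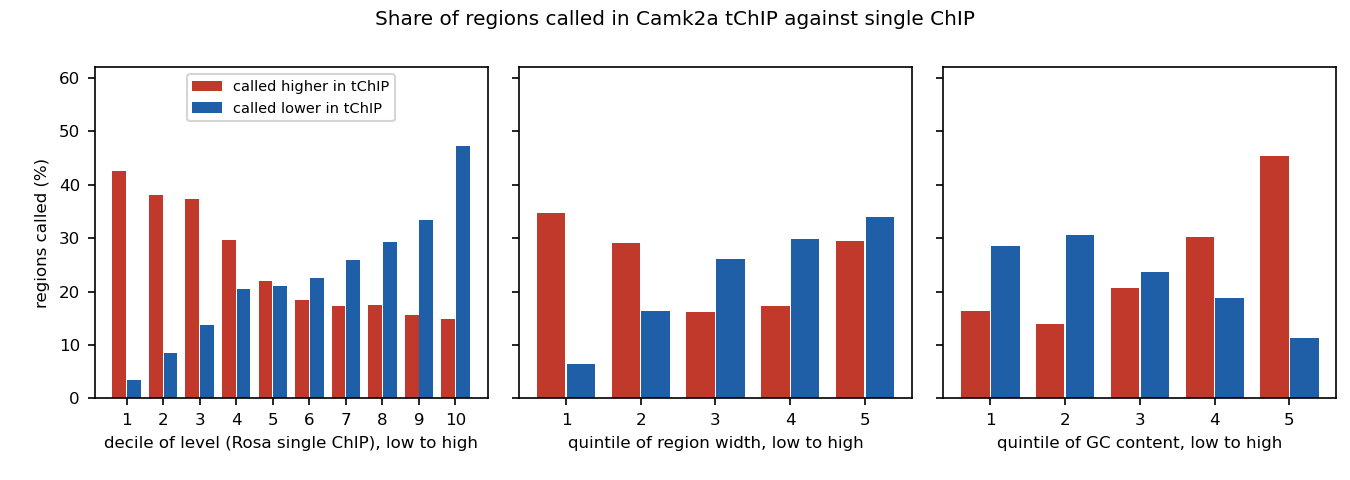
Share of regions called higher (red) and lower (blue) in Camk2a mice by decile of level in Rosa single ChIP-Seq (left), quintile of width (middle) and quintile of GC content (right). Higher calls fell from 42.5% to 14.8% over the level deciles and rose to 45.4% at the highest GC content, and lower calls rose from 3.50% to 47.2% over the level deciles.

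In the 250 bases upstream of protein-coding starts, promoters called higher had a median of 14 CpGs and those called lower 17, against 16 over all. Those that fell by 1 or more stood out with 6, and the 13 endothelial promoters with 4; those lower in both lines had 21. Short motifs were counted on both strands. The ETS motif CCGGAAGT was in 4.97% of all these promoters, in 1.79% of those called higher, 5.27% of those called lower, 0.744% of those that fell by 1 or more and 10.3% of the ribosomal, oxidative phosphorylation and proteasome promoters. The NRF1 motif GCGCATGC was in 4.06% of all, 2.12% of those higher and 4.35% of those lower. The AP-1 motif TGANTCA was in 3.78% of all, 5.15% of those that rose by 1 or more and 7.44% of those that fell by 1 or more. The E-box CAGCTG was in 11.8% of all, 14.7% of those called higher, 15.6% of those that fell by 1 or more and 18.75% of 96 channel and receptor promoters. The GC box GGGCGG, in 60.3% of all, was in 52.5% of those that rose and 46.2% of those that fell by 1 or more. None of these motifs contains another, and the shares describe the letters only.

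The mitochondrial and sex chromosomes gave small sets. The 2 regions on the mitochondrial genome fell, from 463, 436 and 385 CPM to 87.4, 93.9 and 68.1 CPM at the first and from 373, 371 and 309 CPM to 71.1, 78.5 and 36.6 CPM at the second (-2.36 ± 0.055 and -2.49 ± 0.066), and rose slightly in Rosa mice (0.32 and 0.27). Their mean levels in single ChIP-Seq were 428 and 351 CPM in Camk2a mice and 202 and 172 CPM in Rosa mice. Mitochondrial DNA carries no nucleosomes, and the cause of these changes was not tested. The 3 regions of the Y chromosome, at Eif2s3y, Uty and Ddx3y, were lower in both lines (-0.52, -0.44 and -0.67 in Camk2a mice). Of 589 regions of the X chromosome 13.1% were higher and 20.9% lower, against 25.8% and 22.6% of autosomal regions.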

How the data were processed

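The H3K4me3 libraries comprised 3 by each procedure from the Camk2a line, and likewise from the Rosa line. The authors trimmed reads (FASTX), removed those mapping to repeats (Bowtie2 2.1.0), mapped the rest to mm9 (Bowtie 1.0.0), removed duplicates (SAMtools 0.1.19, per the labels), called peaks (MACS) and counted reads over peaks (bedtools 2.17.0); the deposited values are these raw counts. How peaks were merged into 1 list is not given in the sources used here. From the counts, each comparison was fitted across all 17993 regions with edgeR 4.0.16 (R 4.3.3), using TMM, the quasi-likelihood test, no filter and Benjamini-Hochberg adjustment, with a threshold of 0.01. The interaction used all 12 libraries. The SE is the log2 change over the root of F. Regions were annotated with the start sites of an mm9 annotation (GENCODE M1), and a gene of a list stands for its region with the most counts.

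The members, lists and rules were chosen with earlier results of these data known. Named were, among called regions without overlap and with a mean of at least 5 CPM, the 12 largest changes at protein-coding starts in each direction and the largest of each region class; further the 2 highest and 2 lowest called members of each list, and genes the study names; other genes were chosen after their values were seen. Alternatives were DESeq2 1.42.0, other scalings, a minimum of 10 counts, thinning of the single ChIP-Seq counts, a replicate block and leaving out each library. Replicates are numbered in the labels, and p-values measure only the spread between these libraries, which may be technical. On simulated data 84.5% of 200 regions changed by 1 (log2) were recovered in the Camk2a comparison, and 61.0% of those changed by 0.5. Intervals cover counting error only. Genes sharing a bidirectional region cannot be told apart. Some list members are counted but not reported by name here.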

Additional observations from a re-analysis of the deposited data

Results flagged for a closer look

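The results below were taken up because the tChIP-Seq effect in Camk2a mice differed from that in Rosa mice by the interaction term (edgeR's quasi-likelihood test, adjusted over all regions). The effect was above that in Rosa mice in 2466 regions and below it in 2375. Values are the Camk2a change minus the Rosa change on the log2 scale. A change in the other direction in Rosa mice widens them. They are therefore not the sizes of gains or losses in Camk2a mice.

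Among neuronal genes, the difference was 1.74 at Camk2a, 1.67 at Slc17a7, the vesicular glutamate transporter, 1.16 at Golga7b, 1.39 at Fam43b and 1.28 at Fam135b. It was 1.06 at Miat, 1.30 at Mir137, 1.10 at Mir129-2 and 0.90 at Mir124a-3. Of the promoters with the largest gains it was 2.11 at Gpr101, and it was 1.88 at a noncoding transcript start of Usp35. In the excitatory cortical neuron list the median change was 0.37 in Camk2a and -0.78 in Rosa mice. Mir124a-3 was not called in Camk2a mice.

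Among genes of glia and vessels, the difference was -2.71 at Aldh1l1, -3.02 at Robo4 and -3.13 at Cdh5, and it was -2.26 at Neat1. At the promoters with the largest losses it was -3.69 at Agmo, -2.40 at Aspa, -3.99 at S100a16, -3.08 at Tsc22d4, -2.78 at Slco1c1 and -3.68 at Gpt. It was -3.23 at Cmtm5, -2.88 at Usp54, -2.71 at Adipor2, -2.57 at Zfp36l2, -2.65 at Plekhb1 and -3.38 at Scarf1. At the largest losses of other classes it was -3.07 at D230004N17Rik, -4.17 inside Uaca and -3.29 near AC160635.1.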

How the results depend on the processing

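Scaling on housekeeping promoters gave 7002 regions higher and 1531 lower in Camk2a mice and 1369 lower in Rosa mice, and library totals alone gave 2522 lower in Rosa mice. By library totals, the change in Camk2a mice was above that in Rosa mice in 1894 regions and below it in 2970. With the single ChIP-Seq counts thinned, these numbers were 1972 and 1857. DESeq2's Wald test called 3149 higher and 2414 lower in Camk2a mice, all within the reported calls. Leaving out a library gave 4025 to 4194 higher and 3421 to 3634 lower. Of 1741 values of 127 named regions under these alternatives, 1687 kept direction and call, 52 lost the call, 1 gained it (Mir124a-3, 0.30 under scaling on housekeeping promoters) and 1 turned, to 0.01 under that scaling. No region called under an alternative had been called in the other direction. Same-numbered libraries did not deviate together (r of 0.012, -0.005 and 0.043), so the numbers were not taken as pairs; with the replicate block 4505 regions were higher and 4011 lower, and no named call changed. Regions near 1 CPM rest on a few counts per library, which limits their folds.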
